A study of Mus musculus with 24 samples.

Results

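The genes described here, Ttr, Kl, Folr1, Aqp1, Clic6, Cldn2, F5, Ace, Otx2 and Slc4a5, are 10 of the 24340 genes present in all 6 deposited tables of striatal RNA-seq. They are secretory, transport and identity genes of the choroid plexus and were matched by gene symbol. These 10 were selected on their values in the same groups, so what follows describes them and tests nothing.

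Striatal RNA was sequenced from 24 male mice on the C57BL/6J background, in 4 groups. The WT-vehicle group held 5 wild type mice given the solvent (DMSO in saline), and the R6/1-vehicle group held 6 R6/1 mice given the same. The WT-RGFP109 group held 6 wild type mice and the R6/1-RGFP109 group 7 R6/1 mice, both treated with RGFP109, an inhibitor of the histone deacetylases HDAC1 and HDAC3, at 30 mg/kg. All mice were injected intraperitoneally 5 times a week for 3 weeks, entered treatment at an age of 11 to 14 weeks, and were killed 18 h after the last injection at 14 to 17 weeks. R6/1 mice are hemizygous for a transgene with exon 1 of human HTT carrying an expanded CAG repeat and serve as a model of Huntington's disease, whereas the transgene is a fragment of the human gene and not the whole gene. The striatum of a single hemisphere was dissected for RNA.

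The choroid plexus is an epithelium that hangs in the brain ventricles, beside the striatum in the lateral ventricle. Its cells secrete cerebrospinal fluid by moving ions and water from blood to ventricle, are sealed by tight junctions, and release carrier proteins and hormones into the fluid. Ace is also expressed by striatal projection neurons. In bulk tissue, fewer cells of a type and less RNA per cell cannot be told apart.

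Each table compared a pair of groups and gave 1 FPKM value per group. FPKM stands for the fragments mapped to a gene, scaled by transcript length and by library size. With 1 value per group, no SD, test or p-value over mice was computed from the tables, and the depth per library is unknown. The study's list of FPKM per mouse, whose values were not used here, shows most of these genes to be very uneven within WT-vehicle, R6/1-vehicle and WT-RGFP109. In each of these groups a few mice held nearly all of the level and the others lay near the mice of R6/1-RGFP109, with Ace and Clic6 the less uneven. The group values below are therefore those of pooled groups and do not stand for a typical mouse. Each difference between groups may rest on those few mice, and results with and without them are not given here. A group value below is the median over the 3 tables that hold the group, and the values of 1 group for the 10 genes differed by at most 4.13% between tables because Cuffdiff scaled each pair on its own. Differences were taken within 1 table, as log2(FPKM + 0.1), a scale that understates the difference of genes with low values. A gene was counted as lower or higher when this difference exceeded 0.5 in size.

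Of the 10 genes, 7 matched a RefSeq table of promoters on GRCm38.p6 (mm10), with 11 windows of 250 bases before a transcript start. Ttr, Folr1 and Clic6 were not matched. The windows of 5 genes are shown 5′ to 3′ on the strand of the gene, because these 5 span the patterns described below. Cldn2 and Slc4a5 lay nearest to the median pattern of the 10, Otx2 encodes a homeodomain transcription factor of this epithelium, and Ace and Aqp1 departed from the order of groups that the other 8 shared. Capitals mark the letters TATAAA (the TATA motif) or TAATCC (the core of the bicoid type of homeodomain site, the kind that Otx2 binds), each searched on both strands.
Cldn2: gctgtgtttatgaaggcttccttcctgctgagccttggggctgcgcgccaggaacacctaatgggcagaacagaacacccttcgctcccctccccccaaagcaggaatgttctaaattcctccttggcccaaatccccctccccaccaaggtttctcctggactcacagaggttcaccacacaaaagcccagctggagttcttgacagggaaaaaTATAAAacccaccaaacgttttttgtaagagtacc
Slc4a5: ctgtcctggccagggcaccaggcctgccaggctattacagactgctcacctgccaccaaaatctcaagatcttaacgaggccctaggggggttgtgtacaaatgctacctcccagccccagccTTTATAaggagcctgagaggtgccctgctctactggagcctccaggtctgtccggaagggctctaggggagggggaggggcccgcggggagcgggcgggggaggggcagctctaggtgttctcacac
Ace: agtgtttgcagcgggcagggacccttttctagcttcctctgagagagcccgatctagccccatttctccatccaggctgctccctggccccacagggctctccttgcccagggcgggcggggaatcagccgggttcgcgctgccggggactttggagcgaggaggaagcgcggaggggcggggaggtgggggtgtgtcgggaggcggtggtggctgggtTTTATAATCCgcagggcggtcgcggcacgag
Otx2: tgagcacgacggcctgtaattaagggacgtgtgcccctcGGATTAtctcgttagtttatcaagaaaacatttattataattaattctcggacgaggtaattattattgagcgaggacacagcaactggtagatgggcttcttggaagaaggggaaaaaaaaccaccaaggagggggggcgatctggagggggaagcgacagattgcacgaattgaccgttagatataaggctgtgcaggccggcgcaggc
Aqp1: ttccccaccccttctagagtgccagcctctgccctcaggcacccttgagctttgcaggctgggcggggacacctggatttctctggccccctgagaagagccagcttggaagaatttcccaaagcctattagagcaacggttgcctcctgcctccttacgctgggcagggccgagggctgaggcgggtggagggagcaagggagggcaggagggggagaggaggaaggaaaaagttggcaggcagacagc

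The windows lay at chrX:139800558-139800807 on the plus strand for Cldn2, chr6:83237125-83237374 (plus) for Slc4a5, chr11:105967698-105967947 (plus) for Ace, chr14:48665110-48665359 (minus) for Otx2 and chr6:55336049-55336298 (plus) for Aqp1. TATAAA stood 35 to 30 bases before the start of Cldn2. It stood on the reverse strand 127 to 122 bases before the start of Slc4a5 and 31 to 26 bases before the Ace start, where it overlapped a TAATCC at 27 to 22 bases. The TAATCC of Otx2 stood on the reverse strand 211 to 206 bases before the third of its 4 listed starts. TATAAA was found in 4 of the 11 windows of these genes and in 12.4% of all 32851 windows, and TAATCC in 2 of the 11 and in 6.25% of all. A match is a description of letters and not a binding site, and the Aqp1 window held no match to either. GC content was 52% for Cldn2, 62.8% for Slc4a5, 67.2% for Ace, 48.4% for Otx2 and 62% for Aqp1, beside a median of 52.4% over all windows.

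In WT-vehicle striatum the 10 genes summed to 1497 FPKM, in R6/1-vehicle to 637 FPKM, in WT-RGFP109 to 327 FPKM and in R6/1-RGFP109 to 42.6 FPKM. Ttr made up 96.4%, 95.3%, 93.4% and 71.7% of these sums. For 8 of the 10 genes the order WT-vehicle, R6/1-vehicle, WT-RGFP109, R6/1-RGFP109 from high to low held in all 6 tables, and 2.03% of the 14860 genes with a mean of at least 0.5 FPKM over the groups had that order. The exceptions were Aqp1 and Ace. All 10 genes passed the minimum of 0.5 FPKM, but 4 of them (Aqp1, Cldn2, F5 and Slc4a5) were under it in R6/1-RGFP109 and passed through the groups where they were high, and Slc4a5, with a mean of 0.823 FPKM, would fail a minimum of 1 FPKM.

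**Figure D1:**
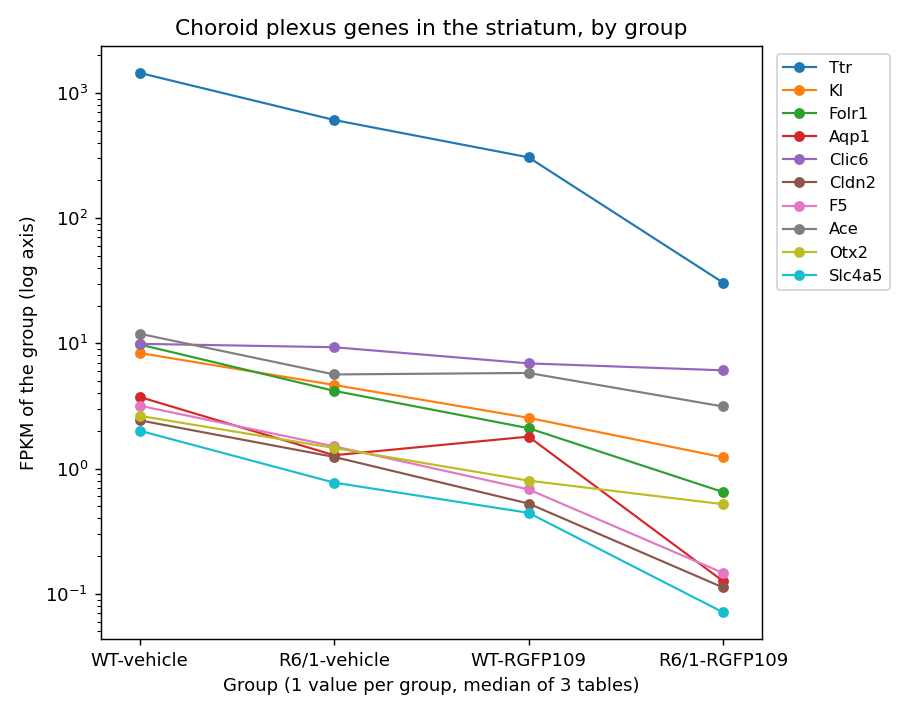
FPKM of the 10 genes (log axis) in the 4 groups, 1 pooled value per group, with lines that only join the values of 1 gene. Ttr lies far above the other 9 in each group, and every gene is highest in WT-vehicle and lowest in R6/1-RGFP109.

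Among the secreted products, Ttr encodes transthyretin, the carrier of thyroid hormone and, through retinol-binding protein, of retinol, and the leading secreted protein of this epithelium. It lies at chr18:20665250-20674326 (mm10). Its level was 1443 FPKM in WT-vehicle, 607 FPKM in R6/1-vehicle, 305 FPKM in WT-RGFP109 and 30.5 FPKM in R6/1-RGFP109. Ranked from the highest level among all 24340 genes, Ttr stood at place 10 in WT-vehicle and 40 in R6/1-vehicle, and with the drug at place 152 in wild type and 3065 in R6/1 mice. In these pooled values, the 4 groups thus ran from one of the most abundant transcripts of the dissected tissue to an ordinary one. On the log2 scale, the difference of R6/1-vehicle from WT-vehicle was -1.25, that of WT-RGFP109 from WT-vehicle was -2.24 and that of R6/1-RGFP109 from R6/1-vehicle was -4.33.

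Kl (klotho, a membrane protein that is shed into the fluid and serves as a co-receptor for the hormone FGF23; chr5:150952607-150993817) had 8.37 FPKM in WT-vehicle, 4.65 FPKM in R6/1-vehicle, 2.54 FPKM in WT-RGFP109 and 1.23 FPKM in R6/1-RGFP109. F5 (coagulation factor V; chr1:164115264-164220277) had 3.18, 1.51, 0.681 and 0.147 FPKM in the same order of groups. The span of groups was narrower for Kl, with a level in WT-vehicle 6.83 times that in R6/1-RGFP109, than for F5, with a ratio of 21.7. The interval given for F5 is the locus listed with its values and begins well before the RefSeq start of the gene. It holds the F5 promoter window (chr1:164151585-164151834) and also exons of Selp, Gm16587 and Gm16588. In the annotation (GENCODE M21), 262 exonic bases of F5 are shared with the antisense gene Gm16548. Whether reads were assigned by strand is not given in the sources used here.

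Folr1 and Ace act at the cell surface. Folr1 encodes folate receptor alpha, which carries folate across the epithelium into the fluid (chr7:101858331-101870788, a listed locus that also holds exons of Anapc15). Its level was 9.79 FPKM in WT-vehicle, 4.17 FPKM in R6/1-vehicle, 2.10 FPKM in WT-RGFP109 and 0.649 FPKM in R6/1-RGFP109. Folr1 thus followed Ttr closely in the 3 groups other than R6/1-RGFP109, with 6.79, 6.87 and 6.88 FPKM per 1000 FPKM of Ttr in WT-vehicle, R6/1-vehicle and WT-RGFP109, and 21.3 in R6/1-RGFP109. Ace encodes angiotensin-converting enzyme, which makes angiotensin II (chr11:105965607-105989964). Its level was 11.9 FPKM in WT-vehicle, 5.64 FPKM in R6/1-vehicle, 5.80 FPKM in WT-RGFP109 and 3.13 FPKM in R6/1-RGFP109. The middle groups were level for Ace, with a log2 difference of 0.039 for WT-RGFP109 from R6/1-vehicle. Relative to Ttr it went from 8.27 FPKM per 1000 in WT-vehicle to 103 per 1000 in R6/1-RGFP109. Exons of Ace share 295 bases with the antisense gene Gm11651, and the interval given for Ace begins before its promoter window.

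Aqp1, Clic6 and Slc4a5 move water and ions. Aqp1 encodes the water channel of the ventricular face of the epithelium (chr6:55336299-55348555) and had 3.73 FPKM in WT-vehicle, 1.28 FPKM in R6/1-vehicle, 1.80 FPKM in WT-RGFP109 and 0.126 FPKM in R6/1-RGFP109. Unlike the 8 genes that kept the common order, it was lower in R6/1-vehicle than in WT-RGFP109, by 0.46 on the log2 scale. Slc4a5, the electrogenic sodium bicarbonate cotransporter NBCe2 (chr6:83237375-83304945), had 2.01, 0.772, 0.443 and 0.0712 FPKM in WT-vehicle, R6/1-vehicle, WT-RGFP109 and R6/1-RGFP109. Its last value was the lowest of all 40 group values of the 10 genes.

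Clic6, a chloride intracellular channel protein (chr16:92498147-92541241), had 9.91 FPKM in WT-vehicle, 9.31 FPKM in R6/1-vehicle, 6.91 FPKM in WT-RGFP109 and 6.09 FPKM in R6/1-RGFP109. These levels were the flattest of the 10. With vehicle the genotypes hardly differed (log2 difference -0.092), and the level in R6/1-RGFP109 was 61.2% of that in WT-vehicle, against 2.11% for Ttr and a median of 5.61% over the 10. Per 1000 FPKM of Ttr there were 6.87 FPKM of Clic6 in WT-vehicle and 199 FPKM in R6/1-RGFP109.

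Cldn2 encodes claudin-2, the tight junction protein that forms cation and water pores between the cells (chrX:139800808-139811388). It had 2.43 FPKM in WT-vehicle, 1.24 FPKM in R6/1-vehicle, 0.525 FPKM in WT-RGFP109 and 0.112 FPKM in R6/1-RGFP109. Otx2, a transcription factor needed to form this epithelium and kept on in it (chr14:48657677-48667644), had 2.63, 1.46, 0.800 and 0.519 FPKM in the same groups. In the vehicle groups the levels of Otx2 and Cldn2 were close, and in both drug groups that of Otx2 was clearly the higher. Exons of Otx2 overlap those of Otx2os1, on the opposite strand, and of Gm49154, with at most 168 bases shared with either. The other 7 genes share no exonic base with another annotated gene.

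The first comparison asked how the R6/1 genotype differed from wild type without the drug. With vehicle, 9 of the 10 genes were lower in R6/1 than in wild type mice, where 10.6% of all 14860 genes were lower by as much, and none of the 10 was higher. The median log2 difference of the 10 was -1.05, and that of all genes was within 0.008 of 0 in this and each other comparison. Aqp1 had the most negative difference, -1.48, followed by Slc4a5 at -1.28, Ttr at -1.25 and Folr1 at -1.21, whereas with a pseudocount of 1 FPKM Ttr had the most negative. F5 (-1.03), Ace (-1.07), Cldn2 (-0.92), Kl (-0.84) and Otx2 (-0.81) formed a close group, and Clic6 stood within the threshold.

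The second comparison was that of the drug in R6/1 mice. In treated R6/1 mice all 10 genes were lower than in R6/1-vehicle, where 1.67% of all genes were lower, and the median of the 10 was -2.46. Behind Ttr (-4.33) came F5 at -2.73, Cldn2 at -2.69, Aqp1 at -2.63, Folr1 at -2.53 and Slc4a5 at -2.38. The order of the genes behind Ttr depends on the pseudocount, since their levels with the drug were low. At 0.01 FPKM the differences were -3.37 for Cldn2, -3.29 for F5 and Slc4a5, -3.25 for Aqp1 and -2.68 for Folr1, and at 1 FPKM they were -1.68 for Folr1, -1.36 for Kl, -1.15 for F5, -1.04 for Aqp1 and Cldn2 and -0.75 for Slc4a5. Ttr stood lowest at each pseudocount. The median of the 10 was -2.97 at 0.01 FPKM and -1.04 at 1 FPKM. As plain ratios of FPKM, with no pseudocount, R6/1-vehicle levels were 11.1 times (Cldn2), 11.0 times (Slc4a5), 10.4 times (F5), 10.2 times (Aqp1) and 6.49 times (Folr1) those in R6/1-RGFP109. At 0.1 FPKM, Kl differed by -1.85, Otx2 by -1.35, Ace by -0.84 and Clic6 by -0.61. For Folr1 and Otx2, the authors also checked the drug effect in the transgenic mice by quantitative RT-PCR. The paper states that the effect was not significant in those PCR data, which were not used here. Of the 65 genes with a difference more negative than that of Ttr, none was protein coding in GENCODE M21, and 56 were listed at 0 in R6/1-RGFP109. On the same scale, among the 13199 protein-coding genes, Ttr took place 1 from the bottom, F5 place 3, Cldn2 place 4 and Aqp1 place 5. Folr1 took place 7, Slc4a5 place 10, Kl place 16, Otx2 place 20, Ace place 42 and Clic6 place 66. The 10 were selected on these values, and the restriction to protein-coding genes was chosen after seeing the data, so these places are a description. Counted over protein-coding genes alone, 0.826% were lower.

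The third comparison was that of the drug in wild type mice. All 10 genes were lower in WT-RGFP109 than in WT-vehicle, beside 2.49% of all genes and 1.47% of the protein-coding genes, with a median of -1.81. Ttr (-2.24), Folr1 (-2.17), F5 (-2.06), Cldn2 (-2.01) and Slc4a5 (-1.95) lay close together, and as plain ratios their WT-vehicle levels were between 4.53 times (Slc4a5) and 4.72 times (Ttr) those with the drug. Kl (-1.68) and Otx2 (-1.60) followed. Ace (-1.03), Aqp1 (-1.01) and Clic6 (-0.51, just past the threshold) differed least. For Ttr the difference with the drug was thus -2.24 in wild type and -4.33 in R6/1 mice, and for Otx2 it was -1.60 and -1.35, but whether the drug response differed between genotypes was not tested, since each group gave 1 value.

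**Figure D2:**
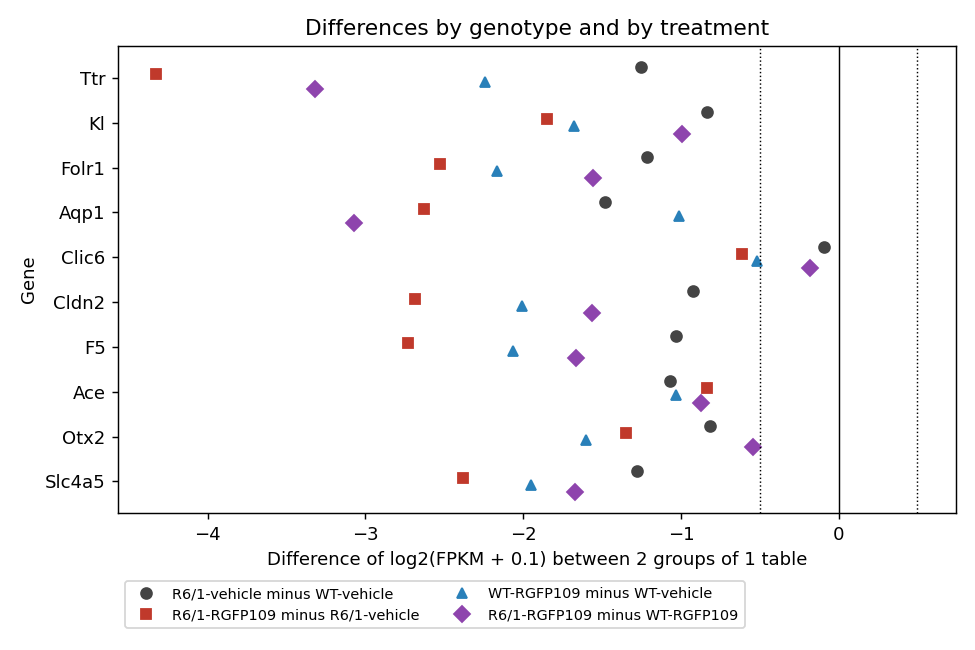
Differences of log2(FPKM + 0.1) of the 10 genes in 4 comparisons, 1 marker each, with dotted lines at the threshold of 0.5. All markers lie at or left of 0, and the 2 Clic6 markers for genotype lie inside the dotted lines.

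Under the drug, the genotypes were compared in the same way. In R6/1-RGFP109, 9 of the 10 genes were lower than in WT-RGFP109, beside 9.32% of all genes, with a median of -1.56. Ttr (-3.32) and Aqp1 (-3.07) stood apart from Slc4a5 and F5 (both -1.67), and from Folr1 and Cldn2 (both -1.56). Kl (-0.99), Ace (-0.87) and Otx2 (-0.54) were nearer to the threshold, and Clic6 (-0.18) was within it. The remaining pairs of groups differ in genotype and drug at once. All 10 genes were lower in R6/1-RGFP109 than in WT-vehicle (10.7% of all genes were lower), from -5.56 for Ttr to -0.70 for Clic6. In WT-RGFP109, 7 of the 10 were lower than in R6/1-vehicle (4.06% of all genes were lower), with a median of -0.82. The 6 comparisons share groups in pairs, so that the low R6/1-RGFP109 values, for example, enter 3 of them, and their counts are not independent of each other. The 10 genes were also measured in the same mice, so a count of 9 or 10 genes is not as many separate observations.

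The middle groups were then placed between the extremes. With R6/1-RGFP109 set to 0% and WT-vehicle to 100% of a gene's FPKM span, R6/1-vehicle stood at 40.7% for Ttr, 47.8% for Kl, 38.5% for Folr1, 48.5% for Cldn2, 44.7% for F5, 44.4% for Otx2 and 36.1% for Slc4a5. In WT-RGFP109 the same 7 genes stood between 13.4% (Otx2) and 19.5% (Ttr), with a median of 17.9%. These 7, which run from a carrier protein to a transcription factor, thus had similar places in both middle groups. The scale fixes both ends for each gene. It hides that the R6/1-RGFP109 levels of the 7 ran from 2.11% (Ttr) to 19.6% (Otx2) of those in WT-vehicle. The remaining 3 had other places, Clic6 with 83.9% in R6/1-vehicle and 21.9% in WT-RGFP109, Aqp1 with 31.8% and 46.4%, and Ace with 28.5% and 30.3%. This split of the 10 was made after their values were seen.

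**Figure D3:**
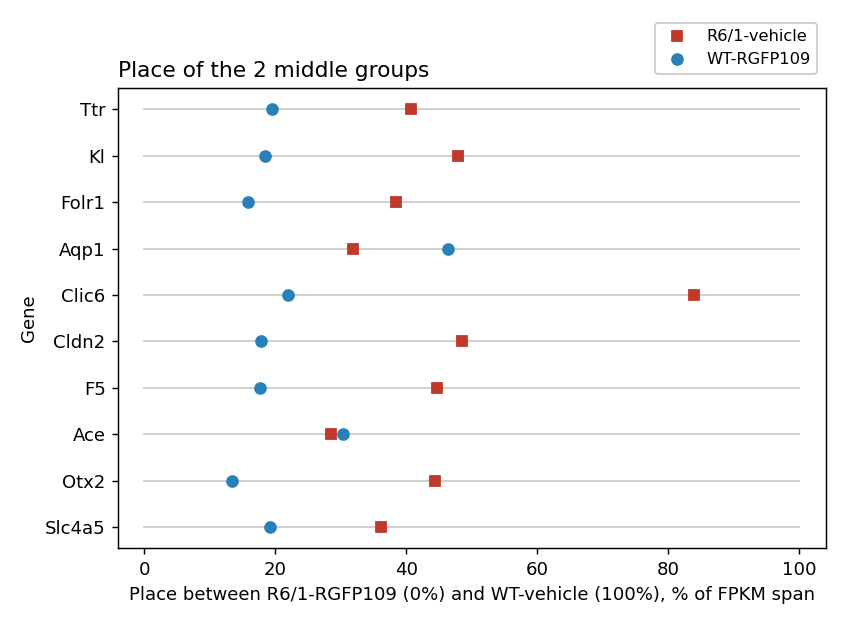
Place of R6/1-vehicle (squares) and WT-RGFP109 (circles) for each gene, in percent of the FPKM span from R6/1-RGFP109 (0%) to WT-vehicle (100%). For 7 genes the squares lie between 36.1% and 48.5% and the circles between 13.4% and 19.5%, while Clic6, Aqp1 and Ace lie elsewhere.

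Other genes known from the choroid plexus were taken as 4 lists of 54 genes, of which 47 passed the minimum level. They were lower in 26 and higher in 2 for R6/1-vehicle against WT-vehicle (median -0.66), lower in 24 and higher in 0 for R6/1-RGFP109 against R6/1-vehicle (median -0.55), lower in 28 and higher in 0 for WT-RGFP109 against WT-vehicle (median -0.64), and lower in 18 and higher in 1 for R6/1-RGFP109 against WT-RGFP109 (median -0.24). These are read beside the shares of 10.6%, 1.67%, 2.49% and 9.32% of all genes. The wider set thus leaned the same way as the 10, by less. The 10 were selected on these same values, so the sizes of the 2 sets are not a like comparison. The 4 lists, like those of the later paragraphs, were also written with earlier results of these data known. Their counts are thus no independent check. In the comparison of R6/1-RGFP109 with R6/1-vehicle, 6 of 11 genes for secreted proteins, 8 of 18 for transport, 9 of 12 for surface and junction and 1 of 6 for transcription factors were lower.

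Kcnj13, the inward rectifier potassium channel Kir7.1, had 9.23 FPKM in WT-vehicle, 3.79 FPKM in R6/1-vehicle, 2.06 FPKM in WT-RGFP109 and 0.553 FPKM in R6/1-RGFP109. Enpp2, which encodes the secreted enzyme autotaxin, had 235, 130, 102 and 68.1 FPKM in the same order. Both thus kept the order of the 8 genes, Kcnj13 with the larger folds. Not all genes of these lists differed, and 23 of the 47 were within the threshold with the drug in R6/1 mice, for example Cst3 (cystatin C, 2335 FPKM in R6/1-vehicle and 2296 FPKM in R6/1-RGFP109), Slc12a2 (the cotransporter NKCC1, 15.7 and 16.1 FPKM) and Atp1b1 (a sodium pump subunit, 572 and 568 FPKM). How much of the RNA of such genes came from the choroid plexus was not tested. Htr2c, the serotonin receptor 2C, and Slc5a5, the sodium iodide symporter, were higher in R6/1-vehicle than in WT-vehicle, with log2 differences of 0.65 and 0.79.

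By a fixed rule, the 10 genes outside the set with the most similar pattern were sought, by the root mean square distance of their 3 log2 differences from WT-vehicle to the median of the set. They were Steap1 (0.133), Tmem72 (0.170), Mfrp (0.190), Prr32 (0.234), Kcnj13 (0.253), Kcne2 (0.292), Wfdc2 (0.433), 1500015O10Rik (0.458), Krt18 (0.482) and the microRNA gene Mir331 (0.559). The median distance over all 14860 genes was 2.41. Of these 10, 7 were on the choroid plexus lists, which held 47 of the 14860 genes, and Prr32, Wfdc2 and Mir331 were on none. Both the lists and the set were chosen with earlier results of these data known, so this overlap is a description and no independent check. Among the set itself, Cldn2 lay nearest to the median (0.136), and Clic6 farthest (1.92), at place 698 of all genes. The likeness rests on 3 differences that share the WT-vehicle value.

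**Figure D4:**
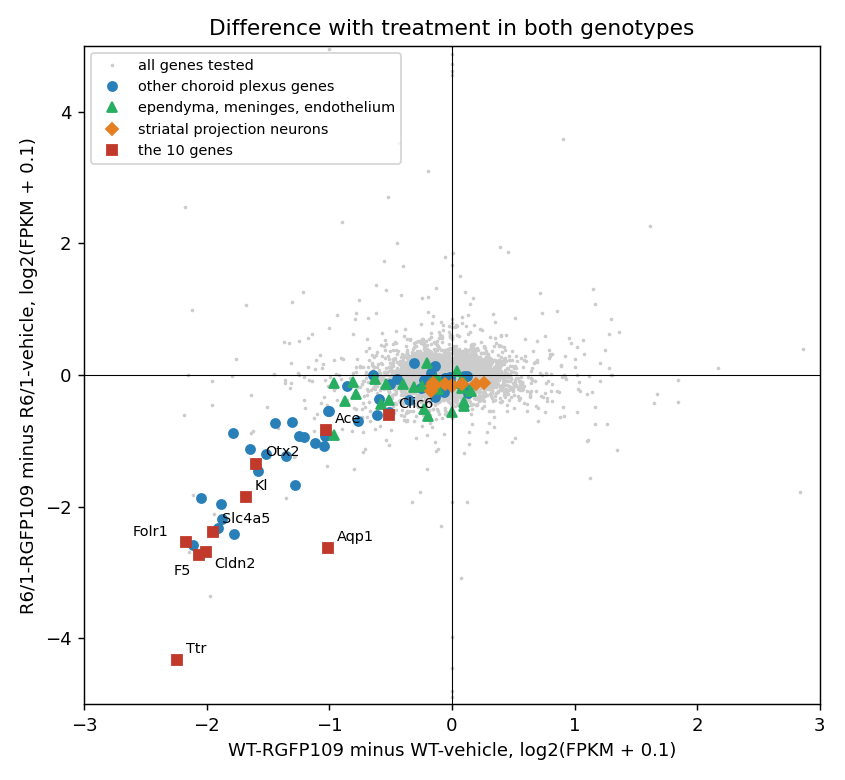
Differences of log2(FPKM + 0.1) with the drug in wild type (horizontal axis) and R6/1 mice (vertical axis) for the genes with a mean of at least 0.5 FPKM, of which 288 lie outside the axes. The 10 genes (squares) and part of the other choroid plexus genes (circles) lie to the lower left, the striatal projection neuron genes (diamonds) lie near 0, and part of the ependyma, meninges and endothelium genes (triangles) lie left of 0.

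Genes of neighbouring cell types were read beside these results. The labelled tissue was checked against 10 genes of striatal projection neurons, which summed to 3387 FPKM in WT-vehicle, 1321 FPKM in R6/1-vehicle, 3273 FPKM in WT-RGFP109 and 1189 FPKM in R6/1-RGFP109. In both genotype comparisons these were lower along with the choroid plexus genes. The counts were 8 of 10 with vehicle and 9 of 10 with the drug, beside 10.6% and 9.32% of all genes. Between drug and vehicle, 0 of 10 passed the threshold in either genotype. Of all genes, 1.67% were lower and 1.65% higher with the drug in R6/1 mice, and 2.49% and 1.88% in wild type mice. A count of 0 of 10 is near those shares. Ependyma genes, of the ciliated lining of the ventricle, summed to 51.3, 49.1, 35.4 and 43.6 FPKM in WT-vehicle, R6/1-vehicle, WT-RGFP109 and R6/1-RGFP109. With the drug, 6 of 9 were lower in wild type mice and 1 of 9 in R6/1 mice, the latter being Mia, beside 2.49% and 1.67% of all genes. In the genotype comparisons, 0 of 9 were lower and 1 was higher with vehicle, and 0 were lower and 3 higher under the drug, where 3.92% of all genes were higher. Meninges genes summed to 26.7, 30.3, 21.6 and 23.0 FPKM, with 3 of 11 lower with the drug in each genotype. With vehicle, 3 of 11 were higher and 1 lower in R6/1 than in wild type mice, with a median of 0.42, where 4.25% of all genes were higher. Endothelium genes summed to 63.8, 56.1, 61.0 and 50.9 FPKM, with 0 of 8 past the threshold with the drug in either genotype, again near the shares of all genes. Genes of septum, hypothalamus and thalamus summed to 27.9, 15.3, 27.8 and 26.1 FPKM. Of these, 3 of 7 were lower in R6/1-vehicle than in WT-vehicle, beside 10.6% of all genes. With the drug 2 of 7 were higher in R6/1 mice, 1 of 7 was higher in wild type mice and 0 were lower in either. The shares of all genes that were higher with the drug were 1.65% in R6/1 and 1.88% in wild type mice. Avp, the hypothalamic hormone vasopressin, carried much of that sum, with 11.1 FPKM in WT-vehicle, 0.984 FPKM in R6/1-vehicle, 9.70 FPKM in WT-RGFP109 and 9.11 FPKM in R6/1-RGFP109. Oxt, oxytocin, had 0.478, 0.117, 0.987 and 2.45 FPKM. With the drug in R6/1 mice both were thus higher, by 3.09 (Avp) and 3.58 (Oxt) on the log2 scale. This was opposite in direction to the choroid plexus genes, but the Oxt difference starts from a low 0.117 FPKM. Oxt was under 0.5 FPKM in both vehicle groups and passed the minimum through the drug groups, where it was high. Its part in the counts of higher genes above rests on that. No gene of these lists was at 0 in any group. The part of tissue composition and of the dissection in the results was not tested.

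Genes that work with Ttr, Folr1, Ace and Kl in the brain are given next. Of 16 such genes, 11 passed the minimum level. With the drug 0 of 11 were lower in R6/1 mice and 1 in wild type mice, beside 1.67% and 2.49% of all genes. That 1 was Dio3, the enzyme that inactivates thyroid hormone (1.40 FPKM in WT-vehicle and 0.777 FPKM in WT-RGFP109). With vehicle, 3 of 11 were lower in R6/1 mice (10.6% of all genes were), and under the drug 2 of 11 were lower in R6/1 than in wild type mice (9.32% of all genes). With vehicle these included Dio2, the activating deiodinase (12.4 FPKM in WT-vehicle and 5.37 FPKM in R6/1-vehicle), and Dio3 (1.40 and 0.399 FPKM). The other folate carriers Slc46a1 and Slc19a1 differed from WT-vehicle by 0.033 and 0.072 on the log2 scale in R6/1-vehicle. Agt, the precursor of angiotensin, had 15.9 FPKM in WT-vehicle, 14.3 FPKM in R6/1-vehicle, 16.9 FPKM in WT-RGFP109 and 12.0 FPKM in R6/1-RGFP109, within the threshold in all 4 comparisons. Fgfr1, a receptor with which klotho pairs, had 16.7, 15.4, 16.4 and 14.2 FPKM.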

How the data were processed

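RNA-seq libraries from the striatum of 24 mice were made from 380 ng of total RNA with TruSeq chemistry and read as single ends of 51 bases. The authors aligned reads with STAR 2.5.0b to the RefSeq transcriptome (mm10) and derived FPKM values in Cufflinks 2.2.1, and the deposited tables are the Cuffdiff comparisons of each pair of groups, with 1 FPKM value per group and table. Their fold, test statistic, p-value and q-value columns hold the authors' own comparisons and were not used. Depth per library and the use of strand are not given in the sources used here, and no interval from counts is given.

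The 24340 genes present in all 6 tables were kept. Differences of log2(FPKM + 0.1) were computed within a table, and genes with a mean of at least 0.5 FPKM over the 4 groups (14860) served as background. With 1 value per group in these tables no test was made, and a difference above 0.5 was counted. Named genes are the 10 members, genes of the marker and partner lists, and the 10 genes nearest in pattern. The values of 1 listed gene are not reported here. The members and lists were chosen with earlier results of these data known. Groups came from the sample labels. Other pseudocounts, thresholds, minimum levels, centring on the median gene and averaging over tables were tried as alternatives. Exon overlaps came from GENCODE M21 and promoter windows from RefSeq (GRCm38.p6). The arithmetic of the fold rule was checked with known folds put on 200 genes, without noise and away from low values. Computations used Python 3.11.15, numpy 2.4.6, pandas 2.3.3 and matplotlib 3.10.9.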

Additional observations from a re-analysis of the deposited data

How the results depend on the processing

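No paired analysis was possible because the deposited tables, the source of all values here, hold 1 value per group, and for the same reason leaving out a mouse was not run. The study's list of FPKM per mouse would allow both and was not used. Of the 60 differences of the 10 genes (6 comparisons), all 60 kept their sign with a pseudocount of 0.01 or 1 FPKM, with centring on the median gene and with averaging over tables. Their side of the threshold was kept in all 60 except with a pseudocount of 1 FPKM, where 6 came within it: Clic6 in WT-RGFP109 against WT-vehicle (-0.46), Cldn2 (-0.46), Otx2 (-0.25) and Slc4a5 (-0.43) in R6/1-RGFP109 against WT-RGFP109, and Otx2 (-0.45) and Slc4a5 (-0.30) in WT-RGFP109 against R6/1-vehicle. A larger pseudocount shrinks the differences of low genes by construction, and sizes moved by up to 2.13. For R6/1-RGFP109 against R6/1-vehicle, Slc4a5 went from -2.38 to -3.29 at 0.01 FPKM and -0.75 at 1 FPKM, and the median of the 10 from -2.46 to -2.97 and -1.04. At 1 FPKM the median was -1.10 for WT-RGFP109 against WT-vehicle, -0.61 for R6/1-RGFP109 against WT-RGFP109, -1.76 for R6/1-RGFP109 against WT-vehicle, -0.50 for WT-RGFP109 against R6/1-vehicle and -0.75 for R6/1-vehicle against WT-vehicle. With a threshold of 2 in place of 0.5, the count of the 10 genes that were lower was 0 for R6/1-vehicle against WT-vehicle, 6 for R6/1-RGFP109 against R6/1-vehicle, 4 for WT-RGFP109 against WT-vehicle, 2 for R6/1-RGFP109 against WT-RGFP109 and 0 for WT-RGFP109 against R6/1-vehicle, where a threshold of 1 left 2. The shares of all genes that were lower were, in the order of these 5 comparisons followed by R6/1-RGFP109 against WT-vehicle, 3.11%, 0.841%, 1.13%, 2.69%, 1.08% and 2.97% at a threshold of 1, and 0.781%, 0.572%, 0.565%, 0.868%, 0.612% and 0.808% at 2. With a pseudocount of 1 FPKM they were 1.51% for WT-RGFP109 against WT-vehicle and 2.07% for WT-RGFP109 against R6/1-vehicle. Over protein-coding genes alone, an alternative chosen after seeing the data, they were 0.826% for R6/1-RGFP109 against R6/1-vehicle and 1.47% for WT-RGFP109 against WT-vehicle.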
